A study of Homo sapiens with 4 samples.

Results

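Collagens, laminins and integrins were followed in IMR-32, a long-established line of human MYCN-amplified neuroblastoma, after knockdown of the neurogenic transcription factor NeuroD1. The members are genes whose symbol is COL, a number, A and a number, or LAMA, LAMB or LAMC and a number, or ITGA or ITGB and a number or letter code, with antisense genes and pseudogenes left out. ITGA2B was read as a member. Of 60612 genes in the count table, 82 symbols matched, and 64 of them reached 10 counts summed over the 4 libraries, namely 35 collagens, 10 laminins and 19 integrins. The other 18 matches had at most 4 counts in all, and COL1A2, the partner chain of COL1A1 in type I collagen, was among them with 3 counts.

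RNAseq of poly(A) RNA was made for 2 shControl and 2 shNeuroD1 libraries. All 4 came from IMR-32 cells stably transduced with an inducible short hairpin RNA and given doxycycline at 1 µg/mL for 48 h, so the controls carried a hairpin and the drug too. The shControl cells carried a control hairpin and the shNeuroD1 cells a hairpin against NeuroD1. The genotype label of the controls reads WT, a gene table issued with the paper names the knockdown libraries after the second of its NeuroD1 hairpins, and no label says that replicates came from separate cultures, so p-values measure only the spread between these libraries.

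Collagens are secreted proteins built of 3 α chains wound into a triple helix. They form fibrils, the sheet-like network of basement membranes, or structures anchored in the cell membrane. Laminins are heterotrimers of an α, a β and a γ chain and are the main glycoproteins of basement membranes. Integrins are transmembrane receptors of an α and a β chain that bind collagens, laminins and other ligands and connect them to the actin cytoskeleton. The β1 chain, encoded by ITGB1, pairs with most of the α chains, and in neuroblasts, cells of the neural crest lineage, β1 integrins serve attachment and migration.

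Levels are given as raw counts, as CPM, which are counts scaled to library size and by TMM, a correction for library composition, or as CPM per kilobase of exon (CPM/kb), the scale used wherever genes are compared with each other. The libraries held between 14665210 and 16482463 counts, and 1 count was worth between 0.0630 and 0.0679 CPM. NEUROD1 fell from 416.7 ± 3.10 CPM in shControl to 60.9 ± 3.90 CPM in shNeuroD1 (SD, n = 2 each, as throughout), or 14.6% of the control level. All 12 sympathetic neuroblast markers reached 1 CPM in the mean of the libraries. Of other cell types, 5 of 10 fibroblast markers, 3 of 8 Schwann cell markers, 0 of 7 endothelial markers and 0 of 9 leukocyte markers did so. The groups were compared in edgeR by the quasi-likelihood test with Benjamini-Hochberg adjustment over all 17537 genes that passed a filter on low counts. A gene is said to have risen or fallen at an adjusted p under 0.05, and to have passed both thresholds if its log2 fold change (shNeuroD1 over shControl) was also beyond 1 in size.

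In summed level the 3 families did not all move the same way. The summed level of the 10 laminins was 549.2 and 549.0 CPM in shControl against 718.2 and 716.7 CPM in shNeuroD1, or 131% of control. The 35 collagens together were at 569.0 and 588.2 CPM in shControl against 649.1 and 643.5 CPM in shNeuroD1, or 112% of control. The 19 integrins together went the other way, from 713.5 and 707.2 CPM to 425.1 and 424.2 CPM, or 59.8% of control. The groups did not overlap in any of these sums, but how often sums over other genes overlapped was not counted. With 2 libraries against 2, no two-sided exact permutation p can lie below 0.333. ITGB1 alone made up most of the integrin sum in shControl, and without it the other 18 integrins were at 289.8 and 287.5 CPM in shControl against 221.1 and 221.3 CPM in shNeuroD1, or 76.7% of control. In RNA from whole cultures, fewer cells of a type and less RNA per cell cannot be told apart.

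Of the 64 members, 53 passed the filter and 11 did not. Among the 53, 5 fell and 15 rose past both thresholds (9.43% and 28.3%), where 5.14% and 8.79% of all tested genes did. Of the 15, 5 (COL3A1, COL4A3, COL8A2, COL20A1 and COL28A1) reached the filter on low counts only through the shNeuroD1 libraries, so a gene of this kind could be tested only because it was high there, as with 480 of the 1541 genes that rose past both thresholds overall. With a mean of at least 1 CPM as the filter, 5 members fell and 10 rose past both thresholds, and in DESeq2 also 5 and 10. The shares of all genes were not counted under these settings, and 5.14% and 8.79% belong to the main fit alone. By the adjusted p alone, 11 fell and 28 rose (20.8% and 52.8%), where 28.2% and 26.8% of all tested genes did, and 14 did not pass. The median log2 fold change was 0.32 over the 53 members and 0.01 over all tested genes. Among 27 tested collagens 5 fell, 16 rose and 6 did not pass, with a median of 0.58. No tested laminin fell, 6 of 8 rose and 2 did not pass, with a median of 0.47. Of 18 tested integrins 6 fell, 6 rose and 6 did not pass, with a median of -0.16. That integrin median became 0.15 without shControl replicate 2, so its sign rests on this library. The collagen median rests on weakly expressed genes, since it was 0.29 over the 22 collagens with a mean of at least 1 CPM.

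**Figure D1:**
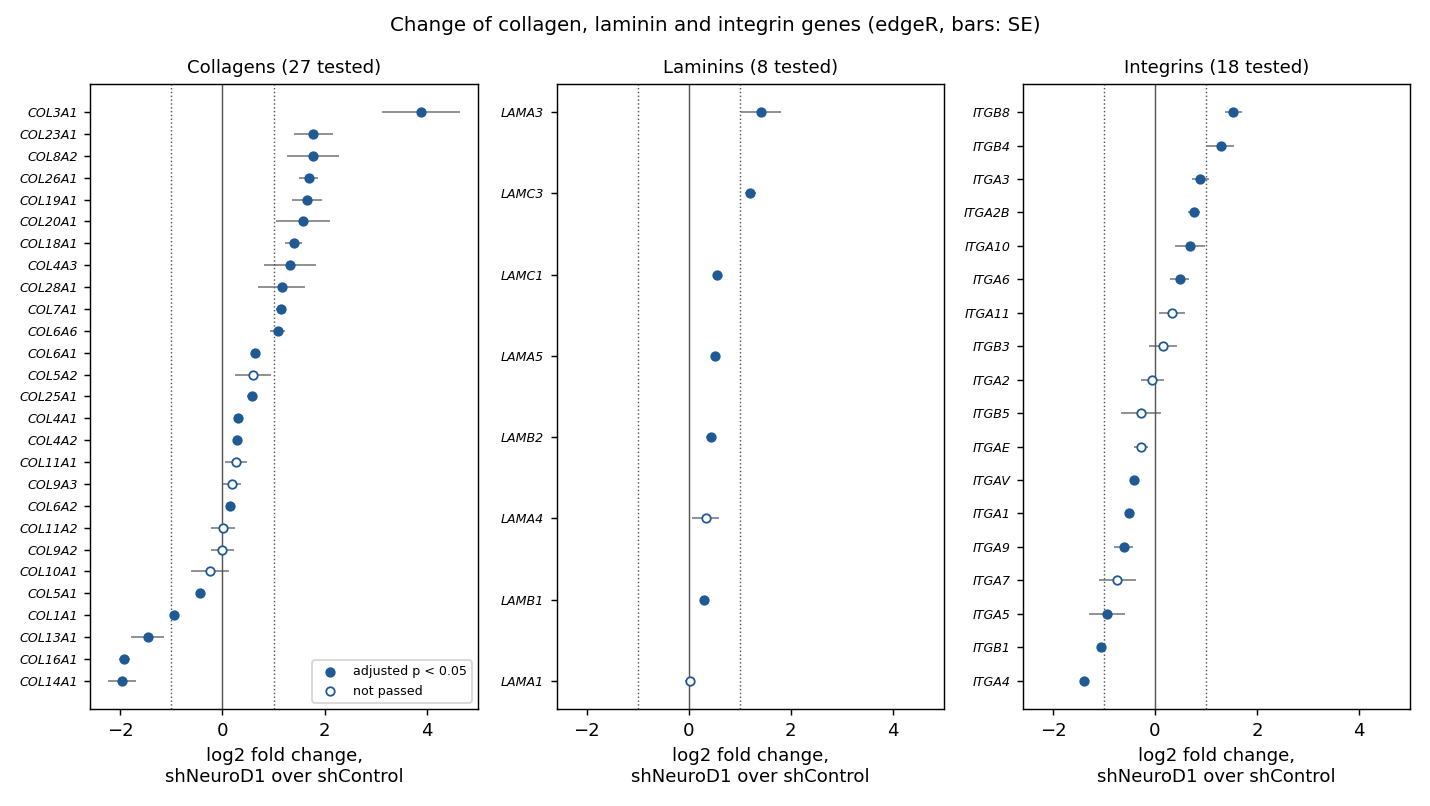
Log2 fold change, shNeuroD1 over shControl, of each tested member by family, with bars for the SE from edgeR. Filled points passed an adjusted p of 0.05, open points did not, and dotted lines mark a log2 fold change of -1 and 1. Every tested laminin lies above 0, while integrins run from -1.39 (ITGA4) to 1.53 (ITGB8).

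ITGB1, the common β chain, was the most abundant integrin in every library and, in shControl, the most abundant member per length. It lies on chromosome 10 (GRCh38, 32900319 to 33005792, minus strand) and stood at 6245 and 6665 counts in the controls against 3103 and 3089 after knockdown. Per length this was 70.2 ± 0.47 CPM/kb in shControl against 33.8 ± 0.13 CPM/kb in shNeuroD1, or 48.2% of control. The groups lay far apart beside their spread (log2 fold change -1.05, SE 0.0421, edgeR adjusted p 5.4e-20). Without TMM, with library size alone as the scale, which shifts the median of all genes to 0.12, gave -0.94, inside the fold threshold.

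ITGA4, the α4 chain that pairs with β1 to bind fibronectin and VCAM-1, fell most among the integrins. It lies on chromosome 2 (181457202 to 181536187, plus strand) and had 1203 and 1219 counts in shControl against 425 and 493 in shNeuroD1, or 38.1% of control (log2 fold change -1.39, SE 0.0708, edgeR adjusted p 2.8e-17). Its neighbour in function, ITGA9, encodes the α9 chain. ITGA9 had 99 and 129 counts in shControl against 64 and 84 in shNeuroD1, with a log2 fold change of -0.61 (edgeR adjusted p 0.0057), a call lost in 3 of the 4 fits that leave out a library. An antisense gene shares 6.46% of its exon bases.

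The α chains that recognise the RGD sequence of fibronectin and vitronectin were divided. ITGAV, the αV chain, fell from 1294 and 1411 counts to 1027 and 987 (log2 fold change -0.42, edgeR adjusted p 1.5e-07). ITGA5, the α5 chain of the main fibronectin receptor, stood at 25, 47, 19 and 18 counts, and its log2 fold change of -0.94 (edgeR adjusted p 0.023) was -0.49 with an adjusted p of 0.29 once shControl replicate 2 was left out, and its call was lost in 3 such fits. ITGA2B, best known as the αIIb chain of platelets, rose from 164 and 205 counts to 322 and 300 (log2 fold change 0.76, edgeR adjusted p 1.1e-06). Its partner ITGB3, the β3 chain, had 34, 41, 43 and 40 counts and did not pass (adjusted p 0.65). ITGB5, another partner of αV, had 14, 31, 17 and 20 counts and did not pass either.

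The laminin-binding α chains went up where they changed. ITGA3, the α3 chain, had 93 and 78 counts in shControl against 158 and 157 in shNeuroD1 (log2 fold change 0.89, SE 0.161, edgeR adjusted p 2.2e-05). ITGA6, the α6 chain, had 69 and 73 against 105 and 92 counts (log2 fold change 0.48, edgeR adjusted p 0.028), and its call was lost in 3 of the 4 fits that leave out a library, with adjusted p up to 0.18. ITGB4, the β4 chain that pairs only with α6 and sits in hemidesmosomes, had 22 and 32 against 59 and 72 counts (log2 fold change 1.28, edgeR adjusted p 0.00011). Both chains of the α6β4 dimer were thus higher in both shNeuroD1 libraries than in either control. ITGA7, the α7 chain of muscle, had 24, 35, 21 and 14 counts and did not pass.

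Among the α chains that bind collagen, the abundant one fell and the sparse ones did not. ITGA1, the α1 chain, had 787 and 862 counts in shControl against 552 and 592 in shNeuroD1 (log2 fold change -0.52, edgeR adjusted p 1.2e-07). ITGA2 did not pass (log2 fold change -0.05), nor did ITGA11 (0.32). ITGA10, the α10 chain of cartilage, had 28, 28, 36 and 54 counts, and its rise (0.69, edgeR adjusted p 0.044) was lost in 3 of the fits that leave out a library, being 0.37 without shNeuroD1 replicate 2.

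ITGB8, the β8 chain that pairs with αV, rose most among the integrins. It had 64 and 62 counts in shControl against 198 and 165 in shNeuroD1 (log2 fold change 1.53, SE 0.167, edgeR adjusted p 2.3e-09), and kept its call without any 1 library. ITGAE, the αE chain known from lymphocytes, had 252, 204, 209 and 168 counts and did not pass, and 6.41% of its exon bases are shared with HASPIN on the opposite strand, a gene with a log2 fold change of -1.27. ITGB2, the leukocyte β2 chain, was not tested, with 7, 3, 6 and 5 counts.

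Ratios of CPM/kb within 1 library compare partner chains without any scaling between libraries. The 11 tested α chains that pair with β1 summed to 27.5 and 27.4 CPM/kb in shControl against 17.9 and 18.4 CPM/kb in shNeuroD1. ITGB1 stood at 2.56 and 2.55 times that sum in shControl against 1.9 and 1.84 times in shNeuroD1. RNA of ITGB1 thus went down by a larger factor than this sum. The sum holds all RNA of ITGAV and ITGA6, whose chains also pair with other β chains. The ratio of ITGA4 to ITGB1 was 0.147 and 0.139 in shControl against 0.104 and 0.121 in shNeuroD1, so RNA of ITGA4 went down by a still larger factor. For ITGAV the ratio to ITGB1 rose from 0.152 and 0.155 to 0.242 and 0.234, and for ITGA1 from 0.0408 and 0.0419 to 0.0576 and 0.0620. The ratio of ITGA3 to ITGB1 rose from 0.00913 and 0.00718 to 0.0312 and 0.0312. None of these ratios overlapped between the groups, but 2 libraries against 2 allow no two-sided exact permutation p below 0.333. How often ratios of other gene pairs overlapped was not counted.

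**Figure D2:**
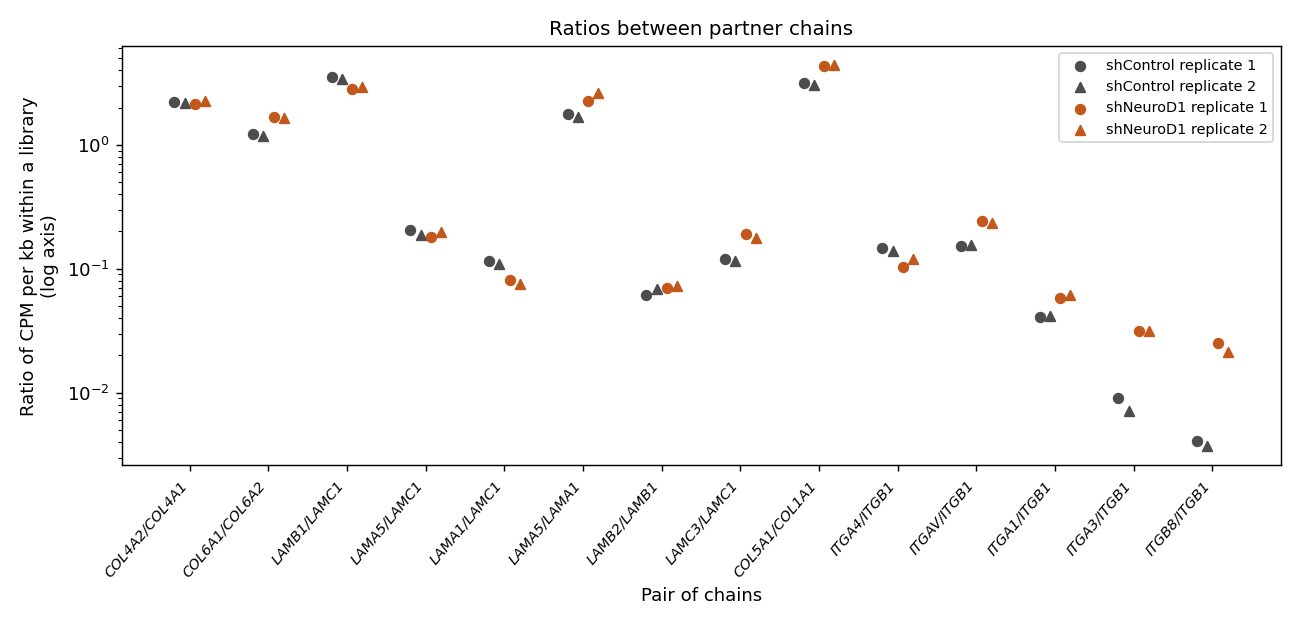
Ratio of CPM per kb between 2 chains of the same family, or between a partner and ITGB1, in each of the 4 libraries, on a log axis. The ratios COL4A2/COL4A1 (2.15 to 2.24) and LAMA5/LAMC1 (0.181 to 0.206) overlap between the groups, and the other 12 do not. Of these 12, LAMB2/LAMB1 separates narrowly, at 0.0619 and 0.0689 in shControl against 0.0702 and 0.0733 in shNeuroD1. Overlap was not counted over other gene pairs, and 55.0% of all tested genes passed the adjusted p.

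LAMB1, the β1 chain of laminin, was the most abundant laminin and, in shNeuroD1, the most abundant member per length. It lies on chromosome 7 (107923799 to 108003255, minus strand) and had 5208 and 5557 counts in shControl against 6552 and 6615 in shNeuroD1, which is 43.2 ± 0.29 and 53.1 ± 0.32 CPM/kb (log2 fold change 0.30, SE 0.0405, edgeR adjusted p 1.7e-07). LAMC1, the γ1 chain found in most laminin trimers, had 1529 and 1695 counts in shControl against 2382 and 2330 in shNeuroD1 (log2 fold change 0.56, SE 0.0487, edgeR adjusted p 1.8e-11). Both chains of the common β1γ1 pair therefore rose, the γ chain by more, and the ratio of LAMB1 to LAMC1 went from 3.52 and 3.39 to 2.84 and 2.93.

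The α chains decide which laminin a trimer is. LAMA5, the α5 chain of most adult basement membranes, had 535 and 537 counts in shControl against 735 and 779 in shNeuroD1 (log2 fold change 0.51, edgeR adjusted p 4.1e-07). LAMA1, the α1 chain of embryonic basement membranes, had 335, 353, 362 and 333 counts and did not pass (log2 fold change 0.02, SE 0.0939, adjusted p 0.86). The ratio of LAMA5 to LAMA1 accordingly went from 1.77 and 1.69 to 2.26 and 2.60. LAMA4, the α4 chain, had 32, 39, 42 and 47 counts and did not pass.

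Of the other laminin chains, LAMC3, the γ3 chain, changed most clearly, with 164 and 178 counts in shControl against 414 and 370 in shNeuroD1 (log2 fold change 1.20, SE 0.109, edgeR adjusted p 3.7e-11). LAMB2, the β2 chain, had 272 and 323 against 388 and 409 counts (log2 fold change 0.43, edgeR adjusted p 0.00026), with an adjusted p of 0.051 without shControl replicate 1. LAMA3, the α3 chain of epithelial laminins, passed both thresholds with 10, 13, 36 and 25 counts (log2 fold change 1.41, edgeR adjusted p 0.0030). Its call was lost in 3 of the 4 fits that leave out a library, with adjusted p up to 0.099, and in DESeq2 (0.087). LAMB3, the β3 chain, was not tested, with 2, 17, 5 and 1 counts.

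**Figure D3:**
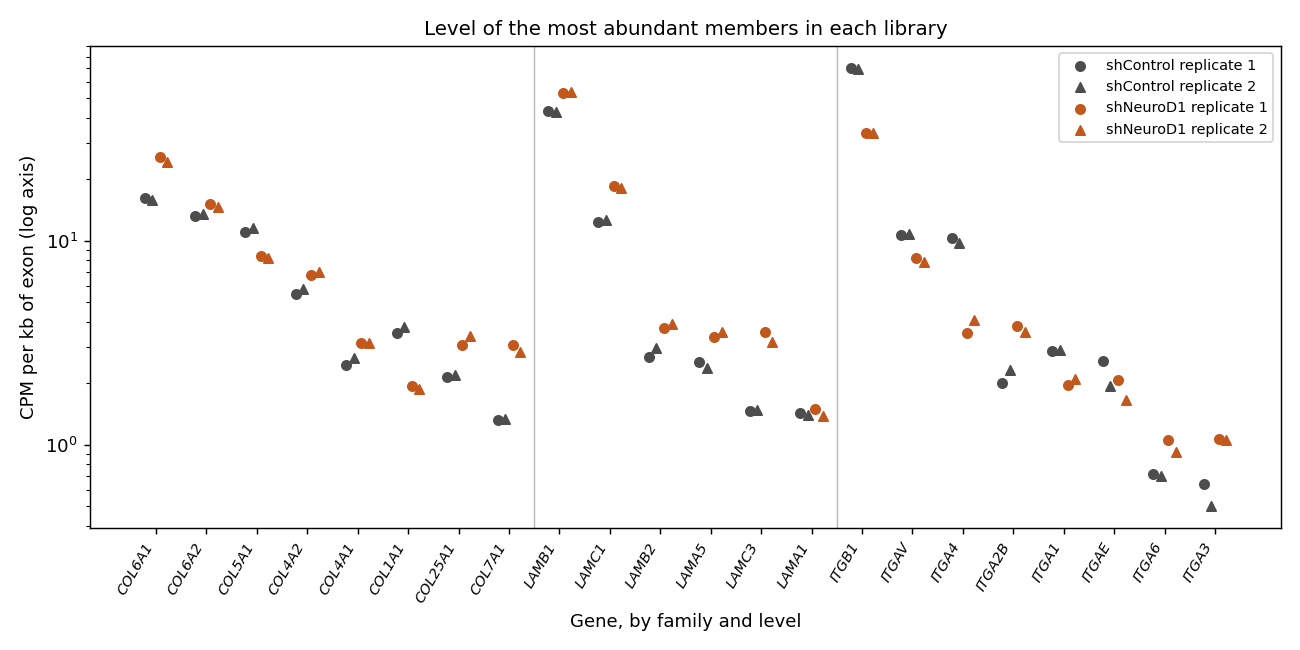
Level of the 8 most abundant collagens, 6 laminins and 8 integrins in each of the 4 libraries, in CPM per kb of exon on a log axis. ITGB1 stands at 70.2 CPM/kb in shControl against 33.8 CPM/kb in shNeuroD1, and LAMB1 at 43.2 and 53.1 CPM/kb.

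Among the basement membrane collagens, the chains of the common type IV trimer rose together. COL4A1 had 534 and 621 counts in shControl against 705 and 703 in shNeuroD1 (log2 fold change 0.29, edgeR adjusted p 0.00075). COL4A2 had 1556 and 1772 counts in shControl against 1982 and 2061 in shNeuroD1 (log2 fold change 0.29, edgeR adjusted p 1.1e-05). Their ratio held at 2.23 and 2.18 in shControl against 2.15 and 2.24 in shNeuroD1. The rise of COL4A1 was smaller without shControl replicate 1 (0.23, adjusted p 0.055), and in DESeq2 its adjusted p was 0.053.

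COL4A1 and COL4A2 are transcribed away from each other on chromosome 13, and their RefSeq start sites (GRCh38.p14) lie 127 bases apart. The 126 bases between these starts are shown because the counts of both genes rose.
COL4A1 to COL4A2, chr13:110307158-110307283, plus strand: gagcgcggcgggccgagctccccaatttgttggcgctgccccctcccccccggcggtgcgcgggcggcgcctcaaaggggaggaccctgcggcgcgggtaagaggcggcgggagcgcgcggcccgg
The nearest transcript start in the deposited files was 0 bases from the RefSeq start for COL4A1 and 26 bases from it for COL4A2.

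The kidney and eye chains of type IV collagen were near the floor. COL4A3 had 6, 8, 11 and 24 counts, and its call (log2 fold change 1.32, edgeR adjusted p 0.029) was lost in 3 of the fits that leave out a library, with 0.65 without shNeuroD1 replicate 2. COL4A4 was not tested, with 5, 7, 1 and 7 counts. COL8A2, of the network collagen VIII, passed both thresholds on 3, 8, 20 and 18 counts, a call lost without shControl replicate 1 (adjusted p 0.090), without shNeuroD1 replicate 1 (0.051) and in DESeq2 (0.11). COL10A1, known from growth plate cartilage, did not pass.

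COL6A1 and COL6A2, chains of the beaded filaments of collagen VI, were the most abundant collagens per length. COL6A1 had 1279 and 1351 counts in shControl against 2086 and 1971 in shNeuroD1, or 16.1 ± 0.22 and 24.9 ± 1.0 CPM/kb (log2 fold change 0.63, SE 0.0518, edgeR adjusted p 3.8e-12). COL6A2 had 1052 and 1163 against 1245 and 1200 counts (log2 fold change 0.15, edgeR adjusted p 0.023), a call lost in each of the 4 fits that leave out a library and in DESeq2 (adjusted p 0.26). The ratio of COL6A1 to COL6A2 went from 1.23 and 1.17 to 1.69 and 1.66.

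Collagen VI trimers also need a further chain. COL6A3, the usual one, was not tested, with 7, 3, 5 and 3 counts. COL6A6, an alternative to it, had 89 and 87 counts in shControl against 185 and 186 in shNeuroD1 (log2 fold change 1.08, SE 0.15, edgeR adjusted p 2.4e-07). COL6A5 had 2, 1, 9 and 3 counts and was not tested. COL6A6 was thus the single gene for this position in the trimer that passed the filter on low counts.

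COL7A1, which forms the anchoring fibrils of epithelial basement membranes, passed both thresholds. It had 216 and 236 counts in shControl against 517 and 479 in shNeuroD1 (log2 fold change 1.15, SE 0.0948, edgeR adjusted p 4.7e-12). COL28A1 had 7, 10, 17 and 21 counts, and its call (1.16, edgeR adjusted p 0.032) was lost in each of the 4 fits that leave out a library, with adjusted p from 0.087 to 0.25.

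COL18A1 and COL26A1 rose too. COL18A1, a basement membrane proteoglycan whose cleavage releases endostatin, had 55 and 76 counts in shControl against 173 and 169 in shNeuroD1 (log2 fold change 1.39, SE 0.167, edgeR adjusted p 1.6e-08). On the opposite strand SLC19A1 shares 16.4% of the exon bases of COL18A1, and how strand was used in counting is not given in the sources used here. SLC19A1 itself had a log2 fold change of -0.10. COL26A1 had 40 and 50 against 132 and 157 counts (log2 fold change 1.69, SE 0.191, edgeR adjusted p 4.7e-09).

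The fibrillar collagens that were well measured fell. COL5A1, which regulates the width of collagen fibrils, had 1828 and 2056 counts in shControl against 1427 and 1403 in shNeuroD1 (log2 fold change -0.45, SE 0.0510, edgeR adjusted p 5.7e-09). COL1A1, the α1 chain of type I collagen, had 513 and 591 counts in shControl against 291 and 279 in shNeuroD1, or 52.0% of control (log2 fold change -0.94, SE 0.0877, edgeR adjusted p 6.9e-11). COL1A1 was not among the genes the naming rule picked and was added for its role. COL1A2, its partner chain, had 3 counts over all 4 libraries.

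The remaining fibrillar genes were sparse. COL3A1 had 0 and 2 counts in shControl against 15 and 18 in shNeuroD1, and passed both thresholds (edgeR adjusted p 6.3e-05). COL5A2 had 20, 19, 31 and 28 counts and did not pass, nor did COL11A1 and COL11A2, with 47 to 83 counts a library. COL2A1 and COL27A1 were not tested, with at most 11 counts a library.

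COL1A1, which fell, and COL3A1, which reached the filter only through shNeuroD1, are themselves on the list of fibroblast markers. The summed level of the 10 fibroblast markers, a list that holds COL1A1, COL1A2 and COL3A1, was 197.0 and 202.6 CPM in shControl against 131.5 and 126.4 CPM in shNeuroD1. Of its 6 tested markers, 2 fell and 4 rose (33.3% and 66.7%), where 28.2% and 26.8% of all tested genes did. COL1A1 and PDGFRA fell. PDGFRA, the highest of them in CPM, stood at 109.1 and 110.3 CPM in shControl against 41.7 and 37.8 CPM in shNeuroD1. COL3A1, LUM, PDGFRB and THY1 rose, with a log2 fold change of 1.62 for LUM, 0.64 for PDGFRB (edgeR adjusted p 0.00014) and 0.26 for THY1 (edgeR adjusted p 0.0013). THY1 was the next highest in CPM after PDGFRA, at 43.3 and 43.0 CPM in shControl against 50.9 and 52.3 CPM in shNeuroD1. The markers FAP and POSTN had 0 counts in every library, and DCN had 1, 5, 0 and 0. The Schwann cell markers summed to 5.43 and 5.42 CPM in shControl against 8.74 and 10.1 CPM in shNeuroD1. The part of either cell type in these changes was not tested.

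The fibril-associated collagens, which sit on the surface of fibrils, held the largest falls. COL16A1 had 434 and 511 counts in shControl against 125 and 123 in shNeuroD1, or 26.4% of control (log2 fold change -1.92, SE 0.111, edgeR adjusted p 6.7e-16). COL14A1, or undulin, had 76 and 70 against 21 and 16 counts, or 25.4% of control (log2 fold change -1.97, SE 0.277, edgeR adjusted p 3.4e-07). Both kept their calls without any 1 library. In the opposite direction, COL19A1 had 18 and 19 counts in shControl against 63 and 53 in shNeuroD1 (log2 fold change 1.65, edgeR adjusted p 1.4e-05). COL20A1 stood at 3, 8, 17 and 16 counts, and its call (adjusted p 0.012) was lost in 3 of the fits that leave out a library. COL9A2 and COL9A3, chains of the cartilage collagen IX, did not pass, and COL9A1, COL12A1 and COL22A1 were not tested.

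Of the transmembrane collagens, COL25A1, which encodes the precursor of a component of amyloid plaques, was the most abundant. It had 276 and 304 counts in shControl against 410 and 452 in shNeuroD1 (log2 fold change 0.58, SE 0.0934, edgeR adjusted p 3.4e-06). COL13A1, a collagen of the neuromuscular junction, had 46 and 60 against 27 and 11 counts (log2 fold change -1.46, edgeR adjusted p 0.00028). Its fold was -0.96 without shNeuroD1 replicate 2 and -2.25 without shNeuroD1 replicate 1, and the adjusted p was 0.086 and 0.14 without shControl replicates 1 and 2. COL23A1 had 18, 7, 35 and 51 counts (log2 fold change 1.78, edgeR adjusted p 0.00021), and without shControl replicate 2 it was 1.19 with an adjusted p of 0.096.

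Asking for a log2 fold change shown to be beyond 1, by edgeR's glmTreat, left 6 members. These were COL14A1, COL16A1 and ITGA4, which fell, and COL3A1, COL26A1 and ITGB8, which rose, with adjusted p from 1.7e-08 to 0.0085. COL3A1 is the one of them that reached the filter only through shNeuroD1. The shares of all tested genes under glmTreat, and in fits that leave out a library, were not counted. Of the 20 members past both thresholds, 13 stayed past them in every fit that left out a library.

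The deposited files also give FPKM (fragments scaled for transcript length and library size by the authors) for transcripts by their start. An event is listed only where its FPKM is above 0, 47 of the 64 members have a listed event, and an unlisted start is a failed or absent estimate, so no fold is given against it. ITGB1 had its leading start at 88.2 and 85.5 FPKM in shControl against 51.0 and 47.1 FPKM in shNeuroD1. A further start within the same gene stood at 16.4 and 15.4 FPKM in shControl and was unlisted in both shNeuroD1 libraries. The leading start therefore carried 84.4% and 84.8% of the gene's listed FPKM in shControl against 100% in shNeuroD1. All 4 libraries ended ITGB1 transcripts at a single listed site, at 104.5, 100.3, 51.0 and 47.1 FPKM.

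Listed starts of other members differed between the groups in level or in being listed. ITGA6 transcripts were listed from the upstream start only in shNeuroD1, at 0.582 and 0.514 FPKM, and the start further downstream stood at 1.14 and 0.531 FPKM in shControl against 0.124 and 0.0700 FPKM in shNeuroD1. COL16A1 had 3.97 and 2.99 FPKM in shControl against 0.131 and 0.0870 FPKM in shNeuroD1 at the start that led in shControl. That start carried 82.0% and 95.6% of the gene's listed FPKM in shControl but 14.2% and 24.3% in shNeuroD1, where other starts, of at most 0.796 FPKM, led. It lies inside the gene, at 31666081, while the annotated gene begins at 31704319 on the minus strand. Whether these starts have promoters of their own was not tested. COL18A1 had 1 start above 0.5 FPKM, listed in shNeuroD1 at 0.797 and 0.872 FPKM and unlisted in shControl. LAMC1 differed in level alone, its leading start having 7.66 and 8.23 FPKM against 13.4 and 11.9 FPKM and 97.2% to 99.4% of the listed FPKM in each library.

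FPKM of transcript starts did not separate the groups for every member that the counts did. The leading start of COL6A1 stood at 11.7, 10.2, 9.14 and 21.3 FPKM, so the groups overlapped. That of LAMB1 overlapped too, at 4.68, 4.96, 3.58 and 6.62 FPKM. So did that of COL4A2, at 12.8, 11.2, 13.7 and 9.74 FPKM. A further start inside COL4A2 stood at 9.39 FPKM in shNeuroD1 replicate 2 and was unlisted in the other libraries. The leading start of COL4A1 did separate the groups, at 3.02 and 2.79 FPKM in shControl against 4.04 and 3.98 FPKM in shNeuroD1. At its listed transcript end, COL6A1 did separate the groups, upward as in the counts. It stood there at 16.857 and 13.558 FPKM in shControl against 30.692 and 23.514 FPKM in shNeuroD1. The leading end of LAMB1 stood above its leading start in every library, at 27.7, 25.954, 40.037 and 19.665 FPKM, and still overlapped. With gene FPKM taken as the sum over starts, limma on log2(FPKM + 1) tested 18 members, of which 1, ITGB1, passed (log2 fold change -1.05, adjusted p 0.028).

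**Figure D4:**
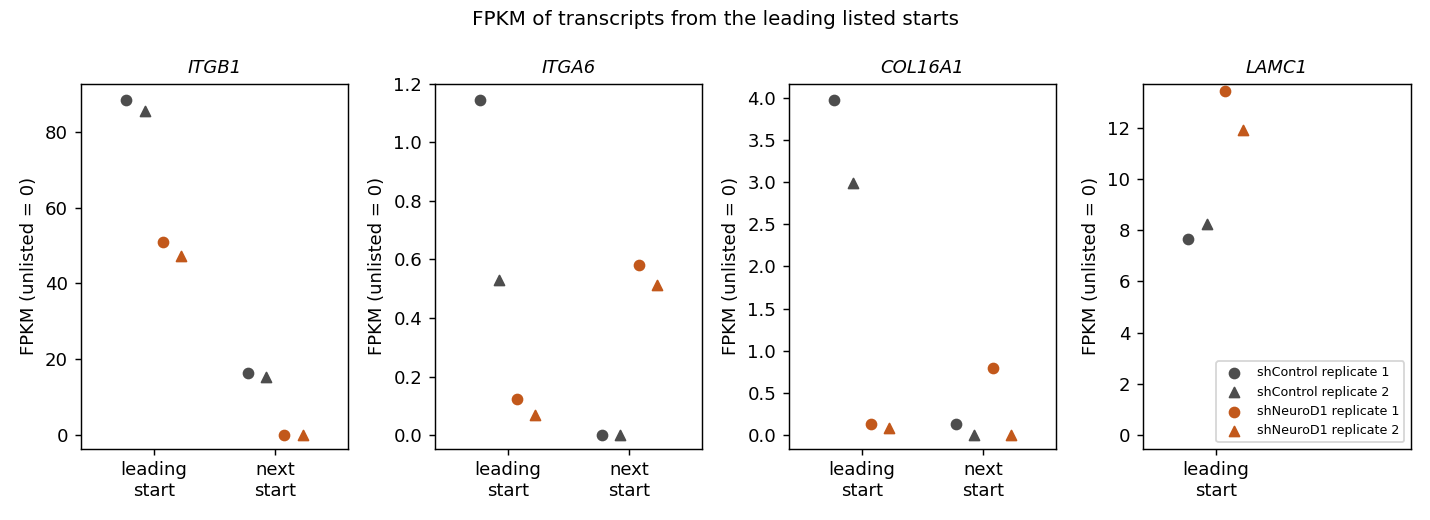
FPKM of transcripts from the leading listed start and, where another reached 0.5 FPKM, the next one, for ITGB1, ITGA6, COL16A1 and LAMC1 in each library, with an unlisted start drawn at 0. The next ITGB1 start stands at 16.4 and 15.4 FPKM in shControl and is unlisted in shNeuroD1, and the next ITGA6 start is listed in shNeuroD1 alone. The start drawn as leading for COL16A1 led in shControl alone.

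Sequences before the start sites were read from RefSeq for GRCh38.p14, which matched 45 of the 64 members. NeuroD1 is a bHLH factor, a class that binds E-boxes, so 3 E-boxes were searched on both strands in the 250 bases before the start. CAGATG was found in 4 of 45 members (8.89%, against 14.6% of 27305 genes), CAGCTG in 6 (13.3% against 16.7%) and CAGGTG in 11 (24.4% against 20.6%). The 3 letter strings do not contain each other, and a match is a description of the window, not a bound site. Among the 8 members that fell and had a window, CAGATG was in 0, CAGCTG in 2 and CAGGTG in 1, and among the 22 that rose, in 2, 1 and 5.

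The windows of ITGB1 and LAMC1 are shown because their RefSeq start is also the leading start in the deposited files. That of COL7A1 is shown because it rose past both thresholds and holds an E-box. Capitals mark the E-box, here CATCTG, which is CAGATG read on the other strand.
ITGB1, chr10:32958231-32958480, minus strand: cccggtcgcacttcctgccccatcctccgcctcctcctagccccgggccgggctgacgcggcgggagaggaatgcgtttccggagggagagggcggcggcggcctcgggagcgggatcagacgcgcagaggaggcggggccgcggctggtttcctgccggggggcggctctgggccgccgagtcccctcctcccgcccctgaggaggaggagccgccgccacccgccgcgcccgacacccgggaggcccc
LAMC1, chr1:183023170-183023419, plus strand: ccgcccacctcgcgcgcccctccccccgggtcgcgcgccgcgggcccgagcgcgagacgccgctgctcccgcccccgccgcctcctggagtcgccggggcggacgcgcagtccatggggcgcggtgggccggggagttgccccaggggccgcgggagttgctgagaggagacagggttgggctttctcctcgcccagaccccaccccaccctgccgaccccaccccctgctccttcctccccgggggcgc
COL7A1, chr3:48595330-48595579, minus strand: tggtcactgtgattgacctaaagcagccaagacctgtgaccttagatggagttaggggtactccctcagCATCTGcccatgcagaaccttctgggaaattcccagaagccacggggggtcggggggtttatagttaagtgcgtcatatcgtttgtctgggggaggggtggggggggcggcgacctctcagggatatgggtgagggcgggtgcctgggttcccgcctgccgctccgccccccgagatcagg

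A hairpin can also lower other transcripts through a short match to bases 2 to 8 of its guide strand, counted from the 5′ end. For the second NeuroD1 hairpin of the paper that match reads AATTCAT, and its target lies in the 3′ UTR of NEUROD1. Windows of 30 bases from GENCODE release 29 on GRCh38 show this target and the match in the 3′ UTR of both integrins that passed both thresholds on the way down, with the 7 matching bases in capitals.
NEUROD1, chr2:181677083-181677112, minus strand: ttgcacaatttgagcAATTCATttcacttt
ITGB1, chr10:32901387-32901416, minus strand: tgaaaataatgttgtAATTCATgccaggga
ITGA4, chr2:181475947-181475976, plus strand: aaacatatgaatgcaAATTCATaattttct
The ITGA4 match lies in the 3′ UTR of a short transcript (ENST00000339307), not in that of the full-length one. A further match in NEUROD1 and 2 matches in ITGB8, which rose, are not printed.

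Members with this match moved both ways. The match was in an annotated 3′ UTR of 17.0% of the tested members and of 19.3% of all tested genes with a 3′ UTR. Of 9 tested members with AATTCAT in an annotated 3′ UTR, ITGA1, ITGA4 and ITGB1 fell, COL4A3, COL6A6, COL19A1, COL20A1 and ITGB8 rose, and ITGA2 did not pass. Of the 44 without it, 8 fell and 23 rose. Over all tested genes with a 3′ UTR, 41.8% of 2575 with the match and 31.9% of 10781 without it fell, and their medians were -0.11 and -0.01. A pair of shifted 7-mers of the same target gave like values. For GCAATTC 46.0% with and 32.5% without it fell, with COL13A1, COL4A3 and LAMA4 as members, and for GAGCAAT 44.7% and 32.7%, with COL3A1, COL4A2, COL6A6, ITGA9, ITGA11 and ITGB1. The part of such matches in the fall of ITGB1 and ITGA4 was not tested.

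The genes around the members were counted from lists of their known partners. Beside them stand the shares of all tested genes that fell, 28.2%, and rose, 26.8%. Of 28 tested collagen-modifying and secretion enzymes, 12 fell and 6 rose (42.9% and 21.4%). PLOD3, a collagen lysyl hydroxylase, had 307 and 317 counts in shControl against 706 and 623 in shNeuroD1 (log2 fold change 1.10), and LOXL2, a lysyl oxidase that cross-links collagen, had 146 and 169 against 76 and 68 (-1.12). Of 23 matrix proteases and inhibitors, 11 fell and 5 rose (47.8% and 21.7%). ADAMTS5, an aggrecanase, went from 306 and 354 counts to 38 and 56 (-2.80), ADAMTS9 from 833 and 934 to 314 and 360 (-1.38), and MMP14, a membrane-bound collagenase, from 98 and 108 to 47 and 44 (-1.17). The edgeR adjusted p of these 5 genes lay between 4.3e-16 (ADAMTS9) and 9.1e-06 (MMP14).

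Of 26 tested integrin adaptors and kinases, 9 fell and 8 rose (34.6% and 30.8%), shares near those of all genes. FERMT2, or kindlin-2, which binds the tails of β integrins and activates them, had 1397 and 1415 counts in shControl against 3577 and 3567 in shNeuroD1 (log2 fold change 1.35, edgeR adjusted p 2.7e-21). PARVA, the α-parvin of the complex with ILK, had 489 and 570 against 2400 and 2421 counts (2.20, edgeR adjusted p 1.4e-24). KANK2, which links talin to the cell cortex, had 464 and 461 against 198 and 200 counts (-1.21, edgeR adjusted p 4.4e-12).

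Of 27 other matrix glycoproteins, 9 fell and 6 rose (33.3% and 22.2%), again near the shares of all genes. THBS2, or thrombospondin-2, had 11 and 25 counts in shControl against 200 and 224 in shNeuroD1 (log2 fold change 3.56), LUM, or lumican, 14 and 10 against 37 and 37 (1.62), and FBN1, or fibrillin-1, 73 and 73 against 31 and 33 (-1.18). Of 12 other collagen and laminin receptors, 5 fell and 6 rose (41.7% and 50%). The proteoglycan SDC3 had 122 and 140 against 391 and 367 counts (1.54), and CD44, a receptor for hyaluronan and collagen, 130 and 146 against 263 and 314 (1.07). All 5 of these genes passed the edgeR test at an adjusted p of 0.00041 or less.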

How the data were processed

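Poly(A) RNA of 4 IMR-32 libraries was sequenced. The authors deposited raw read counts for 60612 genes, and per-library FPKM of transcript starts, ends and splicing events. The submitters' processing notes name cutadapt 1.9.1, HISAT2 2.0.1, HTSeq 0.6.1, DESeq2 and hg38, while the use of strand and the FPKM tool are not given in the sources used here. 0% of counts lay in rows that name no gene. Symbols were found for 60588 gene IDs and GENCODE 29 coordinates for 58394.

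Counts were filtered with filterByExpr (minimum count 10), scaled by TMM and compared by the quasi-likelihood F test in edgeR 4.0.16 (R 4.3.3), two-sided, with Benjamini-Hochberg adjustment over 17537 genes. The script was tested on simulated data. A member needed 10 summed counts. Exon length is the union of GENCODE 29 exons, and 1 standard error is the log2 fold change over the square root of F. Groups and replicate numbers came from the sample titles. No label says that libraries with the same number are a pair, so the numbers were not treated as pairs. Their deviations were uncorrelated (0.016), which with so few libraries does not settle whether they shared a culture or day.

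The genes named are NEUROD1, members past both thresholds whose mean reached 1 CPM, the 5 most abundant collagens, 3 laminins and 5 integrins per length, partner chains of these, and up to 3 genes per list of partners past both thresholds, again from 1 CPM, with the largest change. Other genes were chosen after their values were seen. 1 member and 1 marker gene are not reported here. The members, lists and tests were chosen with earlier results of these data known.

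Alternatives were DESeq2 size factors, library size alone, no filter, a minimum mean of 1 CPM, the Wald test of DESeq2 1.42.0, the replicate block, leaving out each library, glmTreat, limma 3.58.1 on log2(FPKM + 1) and log2(FPKM + 0.1) for genes whose mean reached 1 FPKM, and transcript ends in place of starts. Where 1 library was left in a group, it was assumed to vary like the other group. Chi-square per degree of freedom between the libraries of a group was 2.48 and 1.54, so neither pair was a library deposited again. 3 E-boxes were searched in 250 bases before each start, after a first look at windows that also held the 50 bases after it, where ITGB1 has a CAGATG.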

Additional observations from a re-analysis of the deposited data

Results flagged for a closer look

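The FPKM tables hold splicing events that no comparison of counts uses. For the collagen, laminin and integrin genes, 259 splicing events are listed, and 5 of them stood at 0.5 FPKM or more in both shNeuroD1 libraries while neither shControl library listed them. They belong to 4 genes, COL25A1, COL6A6, ITGA6 and ITGAV. In the opposite direction, 0 events did so. Over all genes, 1502 of 143806 listed splicing events (1.04%) stood in both shNeuroD1 libraries alone in this way and 1009 (0.702%) in both shControl libraries alone, beside 5 of 259 (1.93%) and 0 for the members. The difference was not tested, and COL25A1, COL6A6 and ITGA6 also had higher counts in shNeuroD1.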

How the results depend on the processing

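With 2 libraries a group, many members rest on few counts, where 1 library can decide a call. The counts of members that fell or rose stayed within 1.5 times under DESeq2 size factors, library size alone, either change of filter and the DESeq2 Wald test, but at that limit for rises past both thresholds, with 10 in place of 15 both from a mean of 1 CPM and in DESeq2. By the adjusted p alone, DESeq2 gave 9 falls and 19 rises in place of 11 and 28. COL4A3, COL8A2, COL20A1, COL28A1 and LAMA3 (adjusted p 0.26, 0.11, 0.19, 0.29 and 0.087) and COL4A1, COL6A2, ITGA5, ITGA6, ITGA9 and ITGA10 (0.053, 0.26, 0.21, 0.28, 0.11 and 0.32) lost their calls in DESeq2. With glmTreat 3 fell and 3 rose past both thresholds. The shares of all tested genes were not counted for the settings in this paragraph. With limma on log2(FPKM + 1) and on log2(FPKM + 0.1), which tested 18 members among 10084 genes, 1 fell and 0 rose by either rule. Leaving out a library, between 4 and 6 fell and between 11 and 12 rose past both thresholds, and by the adjusted p alone between 8 and 11 fell and between 18 and 23 rose, with the lowest number, 18, without shControl replicate 1.

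No label says that the replicate number shared by libraries of the 2 groups marks a pair. With the replicate block, 5 members fell and 15 rose past both thresholds, and 11 fell and 28 rose by the adjusted p alone, the same numbers as without it.

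The median log2 fold change of all members was 0.44 by library size alone, 0.19 and 0.21 on log2(FPKM + 1) and log2(FPKM + 0.1), and between 0.29 and 0.42 without 1 library. For collagens it was 0.69 by library size alone, 0.29 from a mean of 1 CPM, 0.34 and 0.36 on the FPKM scales, and between 0.51 and 0.59 without 1 library. For laminins it was 0.58 by library size alone, 0.37 without the filter, 0.37 in DESeq2, 0.62 and 0.96 on the FPKM scales, and between 0.35 and 0.47 without 1 library. For integrins it was -0.65 and -0.68 on the FPKM scales, where 4 integrins were tested, and between -0.15 and 0.15 without 1 library. The cause of these moves was not tested, except that fewer genes or libraries entered some fits.

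Of 240 fold changes of 35 named genes under settings other than leaving out a library, 200 kept their side of the threshold, 39 lost it and 1 changed sign. Of 140 without 1 library, 114 kept it, 24 lost it and 2 changed sign. All changes of sign belonged to ITGA2, which did not pass, at 0.058 by library size alone and between -0.20 and 0.094 without 1 library. With transcript ends in place of starts, the leading site of ITGB1 carried 100% of its FPKM in every library, shControl included.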
